A study of Mus musculus with 4 samples.

Results

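A set of 10 vascular genes was followed through the cell lineages of the mouse mammary gland with and without loss of the Hippo kinases LATS1 and LATS2. They are the ligands *Vegfa*, *Vegfb* and *Vegfc*, the VEGF receptors *Kdr* and *Flt1*, the angiopoietins *Angpt1* and *Angpt2* with their receptor *Tek*, and apelin (*Apln*) with its receptor *Aplnr*. They were taken by symbol, as 10 of the 28693 genes in the count matrices, and each matched 1 row. UMIs, the molecule barcodes that count captured transcripts, were summed per library over the cells of each lineage.

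Single-cell RNA-sequencing covered 4 mammary gland libraries, 1 from each of 4 mice, with 2 libraries per group. The CTL mice (WT in the labels, replicates 1 and 2) carried Lats1f/f, Lats2f/f and a heterozygous R26-lsl-EYFP reporter without Cre. The LATS1/2-KO mice carried the same alleles plus Krt8-CreERT2, which drives tamoxifen-inducible Cre from a luminal keratin promoter, and the reporter was heterozygous in replicate 1 and homozygous in replicate 2. All mice were adult and nulliparous, all received 2 mg tamoxifen on 5 consecutive days, and glands were taken 7 days after the last dose and sorted for live cells only. In this model Cre acts in luminal cells, so by design the endothelial cells, fibroblasts and macrophages of the LATS1/2-KO glands are not targeted, and the luminal cells are a mixture of recombined and unrecombined cells. Each comparison of LATS1/2-KO with CTL rests on 2 mice per group, and its p-values measure the spread between these mice. Tests with the mouse as block measure the spread left once the mice are accounted for. These are the reporter split, within the 2 LATS1/2-KO mice only, and the differences between lineages.

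VEGF-A, made by epithelial, stromal and immune cells, binds KDR (VEGFR2), the main signalling receptor of blood endothelium, and FLT1 (VEGFR1), a receptor that also acts as a decoy and is the receptor of VEGF-B. VEGF-C acts chiefly through FLT4 (VEGFR3) and is best known as the growth factor of lymphatic vessels. ANGPT1 activates the receptor TEK (TIE2) and keeps vessels quiet, ANGPT2 is stored and released by endothelial cells and acts mostly against ANGPT1, and apelin and its receptor mark sprouting and venous endothelium.

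The libraries held 3736 to 6360 barcodes, of which 3515 to 5272 were kept as cells, with 39319356 to 47321220 UMIs per library and a median of 5962.5 to 10141 UMIs per kept cell. A total of 43 kept barcodes occurred in more than 1 library. Cells were given a lineage from marker genes, none of them among the 10 genes described. The gate gave 2932 to 4401 luminal cells per library, split further into ER- (hormone receptor negative) and ER+ cells, together with 144 to 244 basal cells, 23 to 938 fibroblasts and 34 to 222 endothelial cells. Perivascular cells (6 to 41) and macrophages (2 to 293) were too few in CTL libraries for a test. The Cre reporter separated the groups, with an *EYFP* UMI in 0.295% and 0.437% of CTL luminal cells and in 22.2% and 29.0% of LATS1/2-KO luminal cells. *Lats1* fell in LATS1/2-KO luminal cells by 0.80 on the log2 scale (SE 0.09, adjusted p = 0.00128, edgeR) and *Lats2* rose by 0.78 (SE 0.09, adjusted p = 0.00156). Both are counted at their 3′ ends, which need not lie in the deleted part, so they do not check the labels.

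Endothelial cells took a larger share of the LATS1/2-KO glands. CTL replicates 1 and 2 had 0.814% and 0.967% of their kept cells in this lineage, against 4.93% and 4.17% for LATS1/2-KO replicates 1 and 2, which is 0.891% ± 0.108 against 4.55% ± 0.538 (SD, n = 2 per group). The exact 95% binomial intervals were 0.582% to 1.11% and 0.671% to 1.35% for CTL and 4.32% to 5.61% and 3.65% to 4.75% for LATS1/2-KO. The groups did not overlap, and the exact two-sided permutation test gave p = 0.333, the smallest that 2 against 2 mice allow. Among kept cells outside the luminal and basal lineages, the endothelial share was 11.3% and 20.1% in CTL and 19.9% and 10.5% in LATS1/2-KO, with overlapping groups and a difference of -0.515 percentage points (exact permutation p = 0.667). The larger share held against all kept cells and did not hold among the non-epithelial cells, where fibroblasts and macrophages were more numerous as well. All 8 endothelial markers were detected in the gated endothelial cells of both groups, at a summed level of 6769 to 7073 in CTL and 6816 to 7238 in LATS1/2-KO on the CPM scale given next.

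The receptors were highest in endothelial cells, where the ligands *Vegfc* in CTL and *Angpt2* in LATS1/2-KO were high too. Levels are CPM (counts-per-million), a gene's UMIs relative to all UMIs of the same lineage and library. *Kdr* was at 531.8 and 281.2 CPM in CTL and 219.1 and 241.2 CPM in LATS1/2-KO endothelial cells, and no other lineage with at least 10 cells passed 17.5 CPM. *Flt1* was at 952.4 and 787.3 CPM in CTL and 661.1 and 654.5 CPM in LATS1/2-KO endothelial cells. Its next level was in LATS1/2-KO perivascular cells, the mural cells that wrap vessels, at 35.0 and 43.6 CPM from 2 and 7 UMIs. *Tek* had 159.5, 204.5, 92.7 and 117.8 CPM in the endothelial cells of CTL replicates 1 and 2 and LATS1/2-KO replicates 1 and 2, against 4.58 to 16.1 CPM in fibroblasts and 0 UMIs in perivascular cells and macrophages of all libraries. *Aplnr* had 12, 9, 237 and 151 endothelial UMIs in the same order, 0 UMIs in every other named lineage of the CTL libraries and at most 15 in any other lineage of a LATS1/2-KO library. Kept cells outside the named lineages held a further 5, 0, 13 and 5 *Aplnr* UMIs. Endothelial cells thus had 70.6% of all *Aplnr* UMIs in CTL replicate 1 and 88.8% to 100% in the other libraries. For each of these 4 receptors the endothelial level exceeded that of the next lineage beyond the range of the libraries in both groups.

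The 3 receptors *Kdr*, *Flt1* and *Tek* are shown with the 250 bases before their start sites, since they share endothelium as the lineage of their highest level. The sequences are RefSeq's on GRCm38, written 5′ to 3′ on the strand of the gene, and capitals mark GGAA or its reverse complement TTCC, the core that ETS-family transcription factors of endothelium recognise.
Kdr, chr5:75978456-75978705, minus strand: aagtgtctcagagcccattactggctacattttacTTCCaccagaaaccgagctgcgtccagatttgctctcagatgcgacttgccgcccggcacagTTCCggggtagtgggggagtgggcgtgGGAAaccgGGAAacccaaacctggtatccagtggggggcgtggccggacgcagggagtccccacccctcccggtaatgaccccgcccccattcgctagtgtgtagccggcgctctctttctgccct
Flt1, chr5:147726012-147726261, minus strand: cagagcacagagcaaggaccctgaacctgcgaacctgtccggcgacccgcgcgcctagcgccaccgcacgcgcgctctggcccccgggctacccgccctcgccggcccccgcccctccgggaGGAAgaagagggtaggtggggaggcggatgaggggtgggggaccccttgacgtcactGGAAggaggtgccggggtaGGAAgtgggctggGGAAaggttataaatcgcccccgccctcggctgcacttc
Tek, chr4:94739039-94739288, plus strand: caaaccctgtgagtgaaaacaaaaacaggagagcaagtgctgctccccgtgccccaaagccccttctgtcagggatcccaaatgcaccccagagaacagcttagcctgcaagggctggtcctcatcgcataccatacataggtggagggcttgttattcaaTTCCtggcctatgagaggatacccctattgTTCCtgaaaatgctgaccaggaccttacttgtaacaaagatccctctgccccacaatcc
The windows of *Kdr* and *Flt1* held 4 such matches each and that of *Tek* held 2. Of 32851 promoter windows of this length, 93.4% held at least 1 match and the median was 3, so these counts do not set the receptors apart. The genes lie at chr5:75932827-75978458 (*Kdr*), chr5:147561604-147726011 (*Flt1*) and chr4:94739289-94874976 (*Tek*). Windows were given for 7 of the 10 genes, and the 6-base core GGAATG that TEAD factors recognise (with CATTCC) was in none of them. Only 12.6% of all windows held it, so its absence does not set these genes apart either.

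**Figure D1:**
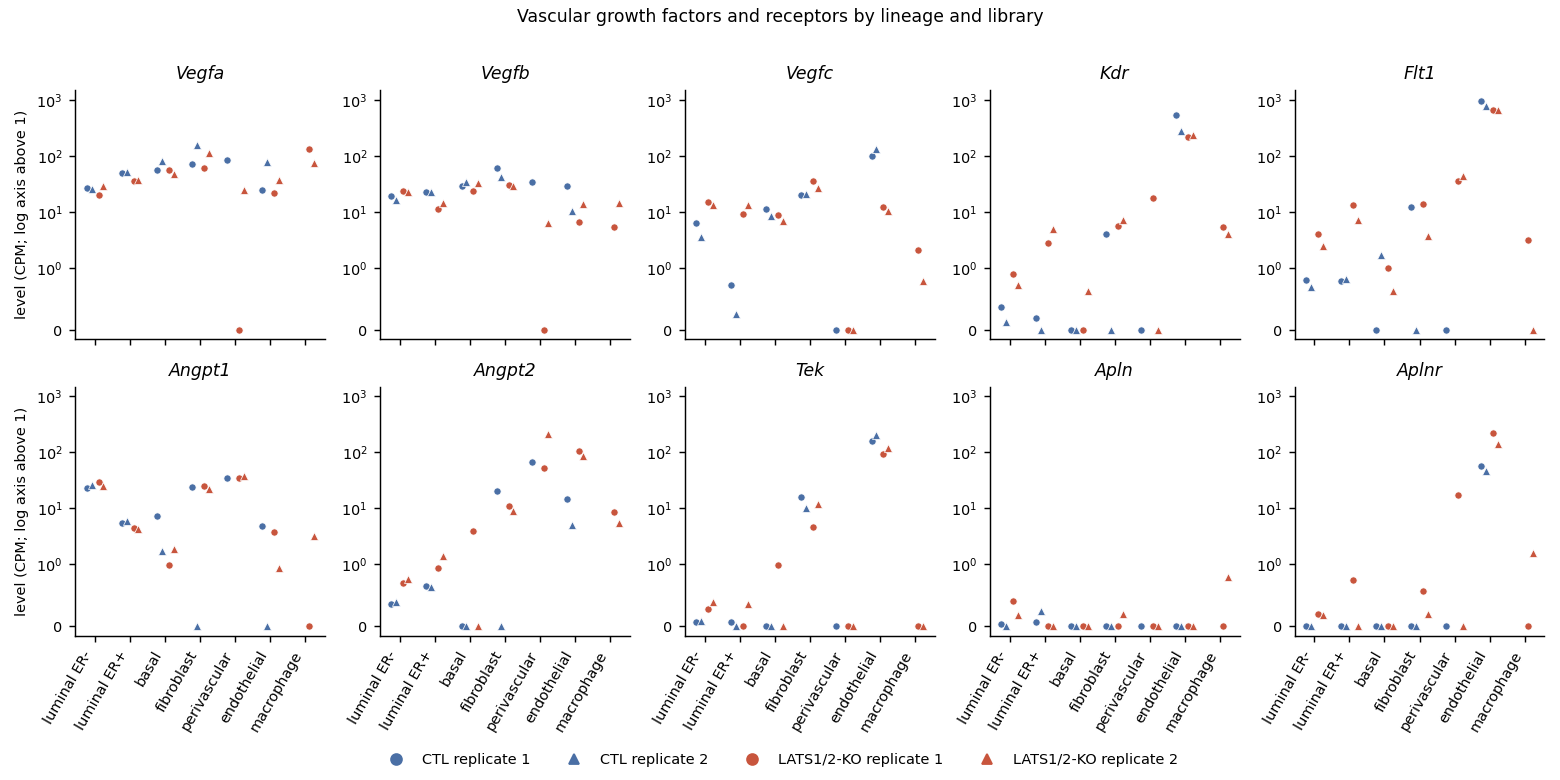
Level of each gene (CPM, log axis above 1 and linear below) by lineage, with a point per library (circles replicate 1, triangles replicate 2, blue CTL, red LATS1/2-KO). Libraries with under 10 cells of a lineage are not plotted. *Kdr*, *Flt1*, *Tek* and *Aplnr* are highest in endothelial cells in every library, while *Vegfa* and *Vegfb* are spread over epithelium and stroma.

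The ligands were spread more widely. In CTL glands *Vegfa* was highest in fibroblasts (72.6 and 154.8 CPM) and basal cells (55.3 and 79.7 CPM), which overlapped, followed by ER+ luminal cells (49.4 and 52.0 CPM), endothelial cells (24.2 and 76.7 CPM) and ER- luminal cells (26.8 and 25.7 CPM). Basal and ER+ luminal cells did not overlap, and the endothelial values spanned both the ER+ and the ER- ones. In LATS1/2-KO glands macrophages headed the order at 133.9 and 73.8 CPM and overlapped fibroblasts at 61.8 and 114.1 CPM. *Vegfb* followed a similar order in CTL, from 60.5 and 41.3 CPM in fibroblasts to 19.5 and 16.4 CPM in ER- luminal cells. *Angpt1* was at 23.3 and 26.6 CPM in CTL ER- luminal cells and at 5.58 and 5.89 CPM in ER+ luminal cells, and in LATS1/2-KO perivascular cells it was at 35.0 and 37.4 CPM from 2 and 6 UMIs. *Angpt2* was low in the epithelium, at 0.364 to 1.42 CPM in the luminal subsets, and reached 52.5 and 211.7 CPM in LATS1/2-KO perivascular cells. Apelin was barely captured, with 2, 4, 13 and 6 UMIs in the luminal cells of the 4 libraries and 0 in all endothelial cells, so its level could not be resolved at this depth. Intervals and limits given here and below cover counting error only.

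Counted over all kept cells, the luminal epithelium held the largest share of the UMIs of *Vegfa*, *Vegfb*, *Vegfc* and *Angpt1* in all 4 libraries. For *Vegfa* it held 94.7% and 93.8% in CTL and 65.8% and 49.7% in LATS1/2-KO, where luminal cells were 71.5% and 55.6% of kept cells. Fibroblasts went from 1.08% and 0.941% of *Vegfa* UMIs to 9.39% and 28.0%, and macrophages from 1 and 0 UMIs to 126 and 93 UMIs, or 11.0% and 4.70%. Of kept cells, luminal cells were 89.6% and 91.1% in CTL. Fibroblasts were 1.20% and 0.654% of kept cells in CTL and 6.89% and 17.8% in LATS1/2-KO, and macrophages were 4.27% and 5.56% in LATS1/2-KO. The part of cell numbers in the *Vegfa* shares was not tested. *Vegfc* came from luminal cells for 84.8% and 71.9% of its UMIs in CTL and 82.5% and 72.8% in LATS1/2-KO. Endothelial cells gave 9.38% and 20.3% of *Vegfc* in CTL and 2.27% and 1.75% in LATS1/2-KO. For *Angpt2* the order turned: luminal cells held 22 of 36 and 20 of 23 UMIs in CTL, and endothelial cells held 112 of 185 and 92 of 230 in LATS1/2-KO, which is 60.5% and 40.0%.

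**Figure D2:**
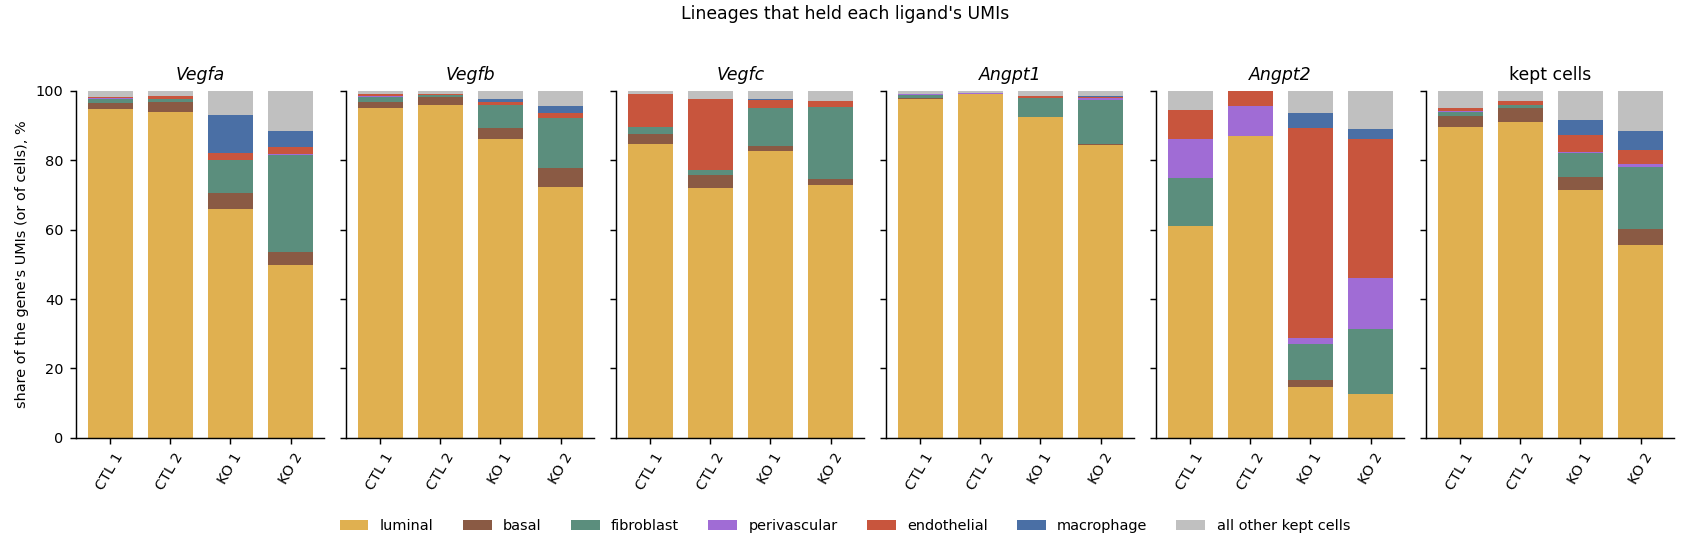
Share (%) of the UMIs of each ligand held by each lineage in the 4 libraries (CTL and KO replicates 1 and 2), with the share of kept cells at the right. Luminal cells hold 94.7% and 93.8% of *Vegfa* UMIs in CTL and 65.8% and 49.7% in LATS1/2-KO, and endothelial cells hold 60.5% and 40.0% of *Angpt2* UMIs in LATS1/2-KO.

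In the luminal epithelium, the targeted lineage, *Vegfc* rose and *Vegfa* fell. *Vegfc* was at 4.22 and 2.23 CPM in CTL and 14.6 and 13.8 CPM in LATS1/2-KO luminal cells. *Vegfa* was at 35.2 and 36.2 CPM in CTL and 23.3 and 29.5 CPM in LATS1/2-KO. Neither pair of groups overlapped, and edgeR's quasi-likelihood test over 14565 genes gave log2 fold changes of 1.91 for *Vegfc* (SE 0.30, adjusted p = 0.00391) and -0.65 for *Vegfa* (SE 0.12, adjusted p = 0.00692). The luminal sums mix subsets, and in CTL *Vegfa* was higher in ER+ (49.4 and 52.0 CPM) than in ER- cells (26.8 and 25.7 CPM). ER+ cells numbered 1196 and 885 in CTL and 532 and 228 in LATS1/2-KO. The part of this mix in the luminal changes was not tested. *Angpt1*, at 16.8 and 17.8 CPM against 23.5 and 21.5 CPM (log2 fold change 0.17, SE 0.10, adjusted p = 0.195), and *Vegfb*, at 21.3 and 18.9 CPM against 20.9 and 21.6 CPM (-0.14, SE 0.10, adjusted p = 0.288), did not pass. *Angpt2*, at 0.489 and 0.484 CPM against 0.832 and 0.871 CPM, did not pass either (0.59, SE 0.29, adjusted p = 0.137). The fitted changes are relative to the TMM size factors. With the library total alone the median over all luminal genes moved to 0.22, *Angpt1* passed at 0.38 and *Vegfb* turned to 0.08. Of the 8 members tested in luminal cells 4 rose and 1 fell, in a comparison that called 59% of all genes (30.6% higher and 28.4% lower), with a median log2 fold change of 1.25 for the members and 0.0026 for all genes. Basal cell markers summed to 29.7 to 38.2 CPM in CTL and 1487 to 1851 CPM in LATS1/2-KO luminal cells, and fibroblast markers to 57.0 to 287.6 CPM against 316.4 to 364.2 CPM, with all 8 of each detected, and their part in these results was not tested.

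*Vegfc* rose more in ER+ than in ER- luminal cells, and *Vegfb* fell in ER+ cells. *Vegfc* went from 0.721 and 0.253 CPM (11 and 4 UMIs) to 9.18 and 13.5 CPM (49 and 38 UMIs) in ER+ cells, and from 6.23 and 3.61 CPM to 14.9 and 13.5 CPM in ER- cells. The subsets lay apart in both CTL libraries and near each other in LATS1/2-KO replicate 2. The log2 fold changes were 4.39 in ER+ (SE 0.51, adjusted p = 0.00305) and 1.18 in ER- cells (SE 0.24, adjusted p = 0.00444), and the difference between them was 3.21 (SE 0.41, adjusted p = 0.00158, edgeR interaction with the mouse as block). *Vegfb* was at 22.8 and 22.7 CPM in CTL ER+ cells and 11.4 and 14.5 CPM in LATS1/2-KO ER+ cells, a log2 fold change of -0.93 (SE 0.17, adjusted p = 0.0101), and the difference between the subsets was -0.96 (SE 0.21, adjusted p = 0.0133). In ER- cells *Vegfb* was at 19.5 and 16.4 CPM in CTL and 23.5 and 22.9 CPM in LATS1/2-KO, with no overlap, and its log2 fold change relative to the TMM factors was 0.03 (SE 0.12, adjusted p = 0.858). With the library total as the only scaling *Vegfb* passed there as higher (0.37, adjusted p = 0.0250). *Vegfa* fell in ER+ cells, from 49.4 and 52.0 CPM to 36.2 and 37.2 CPM (log2 fold change -0.56, SE 0.11, adjusted p = 0.0122). In ER- cells its LATS1/2-KO values of 19.8 and 29.6 CPM spanned the CTL values of 26.8 and 25.7 CPM, and it did not pass (-0.43, SE 0.17, adjusted p = 0.0619). The effects on *Vegfa* in the subsets did not pass the test of their difference (-0.07, SE 0.20, adjusted p = 0.831). *Vegfa* in ER- cells passed without the filter on low counts (adjusted p = 0.00650) and with clusters in place of the gate (adjusted p = 0.0334), and was at -0.73 without LATS1/2-KO replicate 2. Over 14 alternatives its log2 fold change ran from -0.73 to -0.086, and most of them did not pass. In ER+ cells *Vegfa* was lost without CTL replicate 2 (adjusted p = 0.0553) and *Vegfb* after thinning to the smallest library (adjusted p = 0.0611).

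*Angpt1* was higher in ER- than in ER+ cells in both groups, at 29.0 and 24.6 CPM in LATS1/2-KO ER- cells and 4.495 and 4.252 CPM in ER+ cells. Its change did not pass in ER- cells (log2 fold change -0.23, SE 0.12, adjusted p = 0.131, and 0.10 with the library total as the only scaling) or in ER+ cells (-0.47, SE 0.26, adjusted p = 0.196). Over the members, 2 of 7 tested rose and none fell in ER- cells, where 62.4% of all genes were called (32.5% higher, 29.8% lower), and 3 of 6 rose and 2 fell in ER+ cells, where 36.8% were (19.2% higher, 17.6% lower). The difference between the subsets was called for 4 of 7 members and for 24% of all genes. ER+ cells were fewer in LATS1/2-KO libraries (532 and 228, against 1196 and 885), and the summed level of the ER+ markers in them was 1096 to 1438 CPM against 4736 to 5518 CPM, with all 6 markers detected in both groups. The part of these changes in which cells the ER+ gate holds was not tested.

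Low levels of the receptors also appeared in LATS1/2-KO luminal cells. *Kdr* had 13, 3, 44 and 46 UMIs in the luminal cells of CTL replicates 1 and 2 and LATS1/2-KO replicates 1 and 2, or 0.289, 0.0726, 1.36 and 1.38 CPM. In CTL replicate 1, 10 of the 13 UMIs sat in 1 ER- cell. *Flt1* had 34, 29, 198 and 92 UMIs in the same order, or 0.756, 0.702, 6.098 and 2.762 CPM. Both LATS1/2-KO libraries lay above both CTL libraries for each receptor. The log2 fold changes were 2.66 for *Kdr* (SE 0.54, adjusted p = 0.00912), 2.39 for *Flt1* (SE 0.44, adjusted p = 0.00678) and 2.32 for *Tek* (SE 0.54, adjusted p = 0.0143), the last from 3, 2, 9 and 14 UMIs. The call of *Tek* was lost with DESeq2 (adjusted p = 0.115) and without CTL replicate 1 or 2. Other genes of endothelium, *Gpihbp1*, *Ackr1* and *Selp*, also rose and passed in luminal cells (log2 fold changes 6.33, 4.96 and 3.36). Of the capillary, venous and arterial genes tested there, 3 of 5, 3 of 5 and 2 of 3 rose. In the same lists 1, 2 and 1 fell, among them *Vwf* (-2.29). The summed endothelial markers were 45.98 to 47.33 CPM in CTL and 35.67 to 59.60 CPM in LATS1/2-KO luminal cells. The part of endothelial RNA in the receptor rises was not tested. In ER- cells *Flt1* was at 0.802 and 0.695 CPM in CTL and 4.01 and 2.49 CPM in LATS1/2-KO, with no overlap (1.77, SE 0.35, adjusted p = 0.00351), and this call was lost once free RNA was subtracted (1.11, adjusted p = 0.0530). *Kdr* in ER- cells, at 0.364 and 0.130 CPM against 0.901 and 0.723 CPM, did not pass (1.31, SE 0.51, adjusted p = 0.0578), though it passed without the filter on low counts (adjusted p = 0.0474), with the library total as the only scaling (adjusted p = 0.0232) and with clusters in place of the gate (3.53, adjusted p = 0.00621). Over 12 alternatives its log2 fold change ran from 0.79 to 3.53, and 4 of them passed. The share of UMIs estimated as free RNA in luminal cells was 4.30% and 6.89% in CTL and 9.83% and 7.73% in LATS1/2-KO.

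The rises of *Kdr* and *Flt1* were steeper in ER+ cells, where *Kdr* had 3 and 0 UMIs in CTL against 15 and 14 in LATS1/2-KO. The ratio of the pooled *Kdr* counts was 36.8, with an exact 95% interval of 11.4 to 188.6 that covers counting error only. *Flt1* had 12 and 13 UMIs against 70 and 20, or 0.787 and 0.824 CPM against 13.1 and 7.09 CPM (log2 fold change 3.58, SE 0.43, adjusted p = 0.00331). No CTL library reached a LATS1/2-KO library for either receptor, and without LATS1/2-KO replicate 2 *Kdr* no longer passed (adjusted p = 0.0542). The difference between the effects in ER+ and ER- cells was 3.73 for *Kdr* (SE 1.06, adjusted p = 0.0376) and 1.78 for *Flt1* (SE 0.44, adjusted p = 0.0224). The summed endothelial markers in ER+ cells were 41.4 to 49.7 CPM in CTL against 53.5 to 117.4 CPM in LATS1/2-KO, with all 8 detected. In ER+ cells without any endothelial marker UMI, a subset chosen after the data had been seen, *Kdr* had 1 and 0 UMIs in CTL against 8 and 14 in LATS1/2-KO and passed (adjusted p = 0.00300), and *Flt1* passed with a log2 fold change of 2.39 (SE 0.49, adjusted p = 0.00766). The part of endothelial RNA in the remaining counts was not tested.

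**Figure D3:**
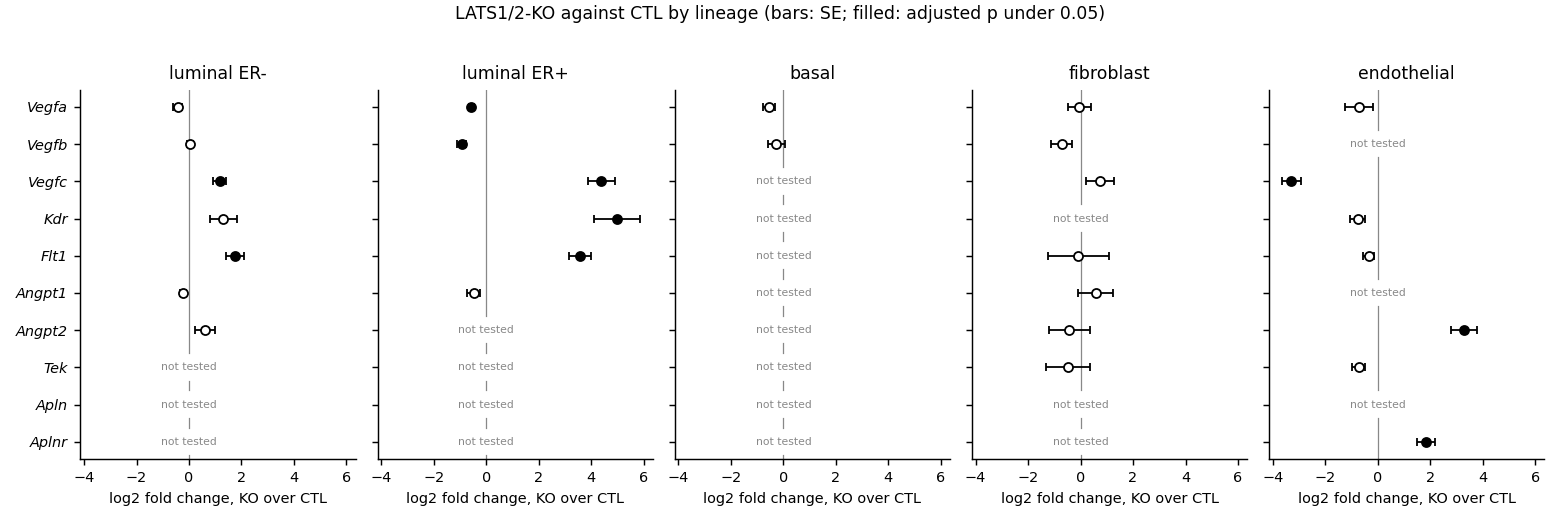
Log2 fold change of LATS1/2-KO over CTL for each gene in 5 lineages (bars are the SE, filled points have an adjusted p under 0.05, edgeR). *Vegfc* is at 1.18 and 4.39 in ER- and ER+ luminal cells and at -3.30 in endothelial cells, where *Angpt2* and *Aplnr* are at 3.29 and 1.85.

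Within the LATS1/2-KO glands the reporter splits luminal cells into *EYFP*+ cells, in which Cre acted, and *EYFP*- cells, which hold unrecombined cells and recombined cells with no *EYFP* UMI. *Vegfa* was at 18.2 and 17.2 CPM in *EYFP*+ cells and 25.9 and 38.7 CPM in *EYFP*- cells of replicates 1 and 2. *Angpt1* was at 15.7 and 14.5 CPM against 27.4 and 26.7 CPM. Both were lower in *EYFP*+ cells of both mice, with log2 differences of -0.87 for *Vegfa* (SE 0.13, adjusted p = 3.68e-05, edgeR with the mouse as block) and -0.85 for *Angpt1* (SE 0.11, adjusted p = 6.66e-06). *Vegfc* was higher in *EYFP*+ cells, at 17.5 and 16.4 CPM against 13.1 and 11.8 CPM (0.44, SE 0.12, adjusted p = 0.00686). *Flt1* was lower, at 4.91 and 1.26 CPM against 6.69 and 3.88 CPM (-0.87, SE 0.26, adjusted p = 0.0115), and *Kdr*, at 1.76 and 1.83 CPM against 1.15 and 1.05 CPM, did not pass (0.70, SE 0.34, adjusted p = 0.113). Among the 7 members tested 1 was higher and 3 were lower in *EYFP*+ cells, where 41.2% of all genes were called. Without the mouse as block the calls of *Vegfa*, *Vegfc* and *Flt1* were lost (adjusted p = 0.0565, 0.0992 and 0.400), and that of *Flt1* also after thinning cells to 2000 UMIs (adjusted p = 0.286). The *EYFP*+ cells were 715 and 849 in number and the *EYFP*- cells 2503 and 2083. They were not matched for ER subset or depth. In LATS1/2-KO *Vegfa* was at 36.2 and 37.2 CPM in ER+ and 19.8 and 29.6 CPM in ER- cells. *Flt1* was higher in ER+ cells too, and *Angpt1* was higher in ER- cells. The part of ER subset in these differences was not tested. Set beside CTL luminal cells, *Vegfc* lay above the CTL range of 2.23 to 4.22 CPM in both *EYFP*+ and *EYFP*- cells, whereas *Angpt1* in *EYFP*+ cells lay just below the CTL values of 16.8 and 17.8 CPM and in *EYFP*- cells above them.

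**Figure D4:**
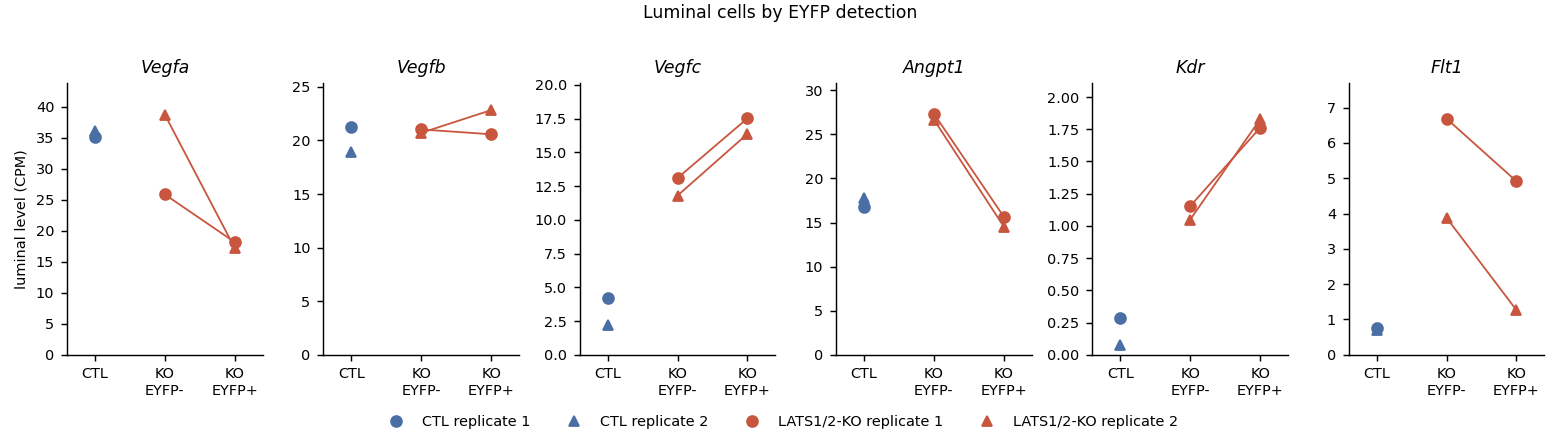
Luminal level (CPM) of 6 genes in the 2 CTL libraries and in *EYFP*- and *EYFP*+ cells of the 2 LATS1/2-KO libraries, with lines joining the cells of 1 mouse. *Vegfa* and *Angpt1* are lower and *Vegfc* is higher in the *EYFP*+ cells of both mice.

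In basal cells, which lie next to the stroma, *Vegfa* and *Vegfb* were the members with enough counts for a test and neither passed, though *Vegfb* did as lower with clusters in place of the gate (-0.78, adjusted p = 0.0410). *Vegfa* was at 55.3 and 79.7 CPM in CTL and 55.5 and 47.8 CPM in LATS1/2-KO (log2 fold change -0.54, SE 0.23, adjusted p = 0.0796), with overlapping groups, where 33.6% of all genes were called. Luminal markers in basal cells summed to 1471.5 to 1483 CPM in CTL and 2783 to 3375 CPM in LATS1/2-KO. Of the basal clusters, 1 held 196 and 160 CTL and 4 and 0 LATS1/2-KO cells, and 1 held 0 and 0 against 360 and 470. The part of which cells the basal gate holds was not tested. In fibroblasts none of the 7 members tested passed, against 5.05% of all genes (2.45% higher, 2.6% lower). *Vegfa* there was at 72.6 and 154.8 CPM in CTL and 61.8 and 114.1 CPM in LATS1/2-KO (-0.05, SE 0.44, adjusted p = 0.973), and *Vegfc* at 20.2 and 20.6 CPM against 36.0 and 26.7 CPM (0.73, SE 0.52, adjusted p = 0.478) from 5 and 2 CTL UMIs. With 59 and 23 CTL fibroblasts, the fold change of *Vegfa* had a wide error, and its difference from the change in luminal cells did not pass (0.64, SE 0.35, adjusted p = 0.306). That test of the difference called none of 8 members, with 1 at an unadjusted p under 0.05 (*Tek*), and 10.2% of all genes (5.35% higher, 4.81% lower). Without CTL replicate 1 or 2, edgeR called 3 and 32 genes in fibroblasts, against 428 with all libraries.

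Among LATS1/2-KO fibroblasts the ligands differed by cluster, as a description of 2 mice. The cluster led by *Cxcl13*, *Saa1* and *Clec3b*, which was the cluster of CTL fibroblasts too, held *Vegfa* at 96.1 and 144.7 CPM, *Vegfc* at 21.1 and 18.1 CPM and *Angpt1* at 7.68 and 12.2 CPM. The cluster led by *Ednrb*, *Spp1* and *Pdgfa* held *Vegfa* at 48.2 and 74.0 CPM and *Angpt1* at 48.2 and 56.7 CPM. A further cluster, led by *Crabp1*, *C1qtnf3* and *Cthrc1*, held *Vegfc* at 48.6 and 56.5 CPM and *Vegfa* at 47.4 and 30.7 CPM. In both mice *Vegfa* was thus highest in the first, *Angpt1* in the second and *Vegfc* in the third. *Angpt2* in the perivascular cells was at 68.5 and 63.4 CPM in CTL (4 and 2 UMIs) and 52.5 and 211.7 CPM in LATS1/2-KO (3 and 34 UMIs), so a single library stood above the rest and no test was made.

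Endothelial cells, which receive these signals, changed in 3 of the 7 members tested. *Angpt2*, the context-dependent TEK ligand that endothelial cells make themselves, had 3 and 1 UMIs in CTL and 112 and 92 UMIs in LATS1/2-KO, or 14.5, 5.11, 104.9 and 86.0 CPM. *Aplnr* was at 58.0 and 46.0 CPM in CTL and 221.9 and 141.2 CPM in LATS1/2-KO. *Vegfc* went the other way, from 101.5 and 132.9 CPM to 12.2 and 10.3 CPM. For each of the 3 the groups did not overlap. *Angpt2* rose 9.80-fold (log2 fold change 3.29, SE 0.49, adjusted p = 0.00321), *Aplnr* rose 3.61-fold (1.85, SE 0.35, adjusted p = 0.0109) and *Vegfc* fell by 3.30 on the log2 scale (SE 0.36, adjusted p = 0.000868), in a comparison of 6854 genes that called 7.05% of them (3.2% higher, 3.85% lower). The pooled *Angpt2* counts of 4 and 204 give a ratio of 9.60, with an exact 95% interval of 3.69 to 35.6 for counting error alone. An *Angpt2* UMI was found in 5.00% and 2.94% of CTL and 24.3% and 25.5% of LATS1/2-KO endothelial cells, against 0.500% to 0.887% of luminal cells, which were sequenced deeper (8240 to 11110 UMIs per cell against 4107.5 to 4432.5). Thinned to 2000 UMIs per cell, the endothelial shares were 2.94% and 0% against 14.6% and 14.1%. *Vegfc* thus rose in luminal cells and fell in endothelial cells of the same glands, and its endothelial level went from above that of every other lineage in CTL to below those of fibroblasts and ER- luminal cells in LATS1/2-KO.

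The canonical receptors did not pass in endothelial cells. *Kdr* was at 531.8 and 281.2 CPM in CTL and 219.1 and 241.2 CPM in LATS1/2-KO (log2 fold change -0.77, SE 0.28, adjusted p = 0.133). Leaving out the 2 of 40 cells with a perivascular marker UMI took CTL replicate 1 from 110 to 65 *Kdr* UMIs, and without such cells *Kdr* was at 341.2 and 291.3 CPM in CTL and 226.8 and 214.5 CPM in LATS1/2-KO (-0.46, SE 0.22, adjusted p = 0.261). *Tek* was at 159.5 and 204.5 CPM against 92.7 and 117.8 CPM (-0.73, SE 0.25, adjusted p = 0.117), and *Flt1* at 952.4 and 787.3 CPM against 661.1 and 654.5 CPM (-0.35, SE 0.20, adjusted p = 0.352). All 3 had both LATS1/2-KO libraries below both CTL libraries. *Vegfa* within endothelial cells was at 24.2 and 76.7 CPM in CTL and 21.5 and 36.5 CPM in LATS1/2-KO, with overlapping groups (-0.72, SE 0.52, adjusted p = 0.471). The genes lie at chr8:18690263-18741562 (*Angpt2*), chr2:85136225-85139923 (*Aplnr*) and chr8:54077606-54187096 (*Vegfc*) on GRCm38.

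All endothelial calls rest on 40 and 34 CTL cells. Without CTL replicate 1 or without CTL replicate 2, and also without the filter on low counts, edgeR called no gene in endothelial cells, with 1123, 954 and 1601 genes at an unadjusted p under 0.05 (main comparison 1484, DESeq2 775 with 255 called). The log2 fold changes of the 3 members kept their sign there, at 2.75 to 4.24 for *Angpt2*, 1.69 to 2.04 for *Aplnr* and -3.49 to -3.11 for *Vegfc*, with adjusted p of 0.320 to 0.484. DESeq2 called all 3.

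Genes of endothelial subtypes moved as well in sum. Arterial genes (*Gja5*, *Gja4*, *Hey1*, *Sox17*, *Bmx*, *Efnb2* and *Sema3g*) summed to 880 to 1314 CPM in CTL and 428 to 464 CPM in LATS1/2-KO. The capillary sum, 8349 to 8809 CPM against 12682 to 18469 CPM, was mostly that of *Fabp4*, a fatty acid carrier named after its values were seen. *Fabp4* was at 7435 and 7924 CPM in CTL and 16511 and 10538 CPM in LATS1/2-KO endothelial cells and did not pass (adjusted p = 0.0744), and it was higher in LATS1/2-KO fibroblasts too, at 420.5 and 404.5 CPM against 28.2 and 61.9 CPM (adjusted p = 0.000954). Venous genes summed to 2684 to 3703 CPM against 4704 to 5738 CPM, and *Lrg1* among them was at 1489 and 761.8 CPM in CTL and 2941 and 2385 CPM in LATS1/2-KO. Markers of lymphatic endothelium summed to 909 to 1278 CPM against 24.3 to 102.9 CPM, with 4 and 5 of 6 rows detected and *Lyve1* at 0 in CTL. No lymphatic marker UMI was found in 35 of 40 and 32 of 34 CTL endothelial cells. In LATS1/2-KO this held for 205 of 222 and 205 of 220, so the CTL sums rest on few cells. At least 2 arterial genes were seen in 52.5% and 64.7% of CTL endothelial cells and in 19.8% and 25% of LATS1/2-KO endothelial cells, at median depths of 4263.5 and 4432.5 against 4406.5 and 4107.5 UMIs. Thinned to 2000 UMIs per cell, with 6, 4, 44 and 35 shallower cells left out, these shares were 38.2% and 53.3% against 12.9% and 17.3%.

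In CTL *Vegfc* lay in the more arterial endothelial cells. All but 1 of the 47 CTL *Vegfc* UMIs lay in the 21 and 22 cells with at least 2 arterial genes, at 182.0 and 204.7 CPM, where LATS1/2-KO was at 42.3 and 20.1 CPM (44 and 55 cells). *Vegfc* fell within these cells by 2.61 on the log2 scale (SE 0.40, adjusted p = 0.00774). *Angpt2* and *Aplnr* had 0 UMIs in the arterial cells of both CTL libraries, which allows up to 26.0 CPM, and were at 26.9 and 70.3 CPM and at 142.2 and 83.7 CPM in those of LATS1/2-KO. In cells with under 2 arterial genes *Aplnr* was at 131.2 and 122.5 CPM in CTL and 247.6 and 163.5 CPM in LATS1/2-KO (log2 fold change 0.76, SE 0.36, adjusted p = 0.325), and *Angpt2* at 32.8 and 13.6 CPM against 130 and 92.1 CPM (2.26, SE 0.59, adjusted p = 0.0691). Neither passed there, although the groups did not overlap. The change of *Aplnr* over all endothelial cells was thus larger than that among the less arterial cells, and the part of the arterial share in it was not tested further. In LATS1/2-KO endothelial cells an *Aplnr* UMI was found in 46.3% and 46.4% of the cells with an *Angpt2* UMI and in 44.05% and 28.7% of those without one. The cells with *Angpt2* were deeper, at medians of 5832 and 6198 UMIs against 3948.5 and 3334.5, so these shares do not show that the 2 genes go together. *Vegfc* and *Aplnr* UMIs met in 0 and 1 of the 99 and 73 LATS1/2-KO cells with *Aplnr*.

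Leaving out cells with any lymphatic marker UMI kept *Angpt2* (log2 fold change 3.02, adjusted p = 0.0380) and *Vegfc* (-3.57, adjusted p = 0.0144) past the threshold and *Aplnr* did not pass (1.63, adjusted p = 0.0761). Perivascular markers, which accompany *Angpt2* in mural cells, summed to 5.11 to 145.0 CPM in CTL and 114.2 to 119.7 CPM in LATS1/2-KO endothelial cells, with 6 and 8 of 8 detected. In endothelial cells without a perivascular marker UMI *Angpt2* was at 15.7 and 5.30 CPM in CTL and 67.2 and 86.6 CPM in LATS1/2-KO (2.90, adjusted p = 0.0108), and *Aplnr* (1.67, adjusted p = 0.0385) and *Vegfc* (-2.96, adjusted p = 0.00125) passed as well. These cells, like the splits by arterial and lymphatic genes, were chosen after the data had been seen. Immediate early and heat-shock genes, which dissociation can induce, summed to 11709 to 17720 CPM in CTL and 8916 to 9190 CPM in LATS1/2-KO endothelial cells, and their part in the result was not tested.

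**Figure D5:**
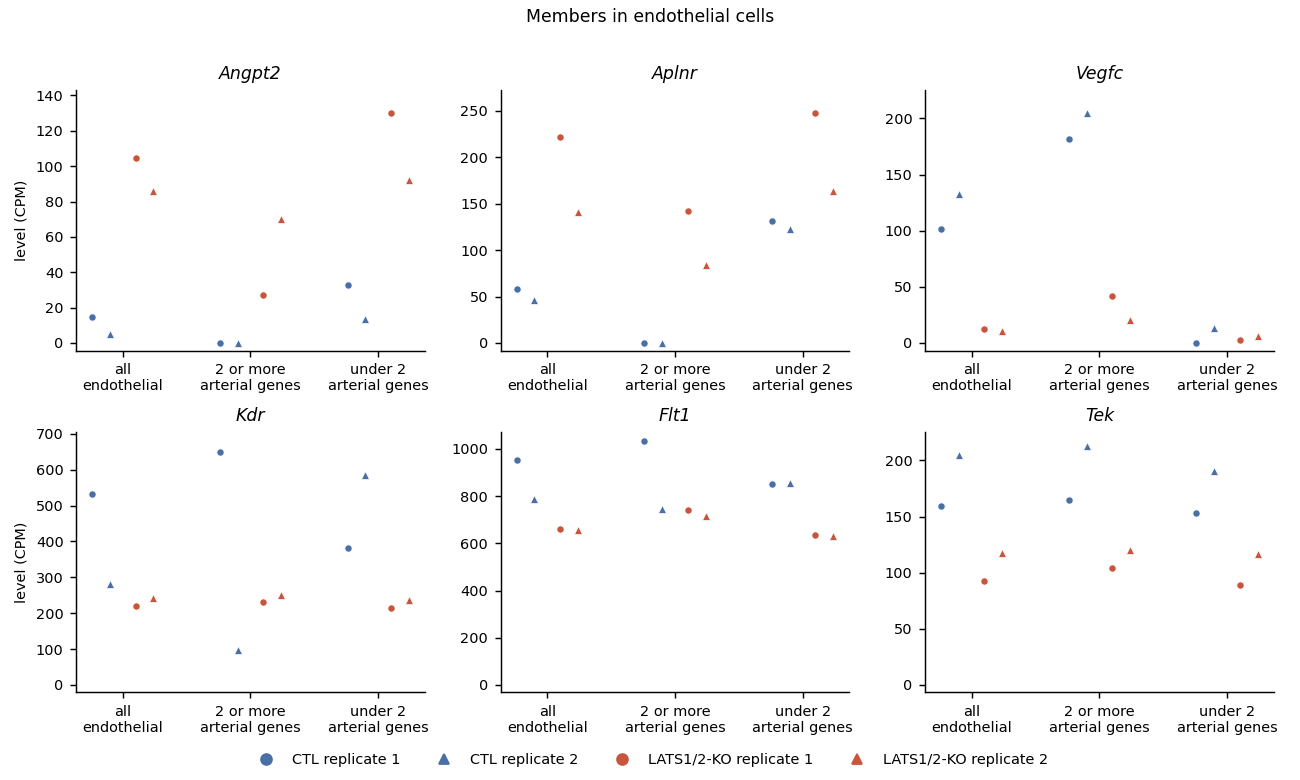
Level (CPM) of 6 genes in all endothelial cells and in those with at least 2, or under 2, of 7 arterial genes detected, with a point per library. *Vegfc* in CTL lies in the more arterial cells, *Angpt2* and *Aplnr* in the less arterial ones, and *Angpt2* is above CTL in both LATS1/2-KO libraries of each split.

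A list of 12 further genes of these pathways, chosen with earlier results of these data known, gave the surroundings of the members. In endothelial cells 1 of 7 tested rose and 2 fell (median log2 fold change 0.10, against 0.02 for all genes), where 3.2% of all genes were called higher and 3.85% lower. *Nrp1*, the neuropilin that serves KDR as a co-receptor, was at 672.0 and 567.5 CPM in CTL and 165.7 and 216.0 CPM in LATS1/2-KO, and fell by 1.64 on the log2 scale (SE 0.22, adjusted p = 0.00209). *Ptprb*, the phosphatase VE-PTP that restrains TEK, fell by 1.01 (adjusted p = 0.0441). *Angptl4*, a lipase inhibitor related to the angiopoietins, had 4.83 CPM, a single UMI, and 0 UMIs in CTL against 231.3 and 46.8 CPM (adjusted p = 0.0433). *Tie1* (169.2 and 255.6 against 226.6 and 262.7 CPM), *Flt4* (24.2 and 40.9 against 31.8 and 34.6 CPM) and *Nrp2* (203.0 and 209.6 against 239.7 and 237.5 CPM) did not pass (adjusted p = 0.589, 0.932 and 0.520), and are given although the naming rule did not choose them.

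Tip-cell genes, which mark the leading cell of a sprout, were split in endothelial cells, with 3 of 8 tested higher and 2 lower (median log2 fold change -0.97). The counts here and below stand beside 7.05% of all endothelial genes called (3.2% higher, 3.85% lower) and a median of 0.02 over all genes. *Col4a1* and *Col4a2*, chains of basement membrane collagen, rose by 2.07 and 2.54 (adjusted p = 0.000897 and 0.000415) and *Trp53i11* from 9.67 and 10.2 CPM to 272.5 and 202.9 CPM (adjusted p = 0.000494). *Esm1*, a secreted proteoglycan of tip cells, was at 149.9 and 25.6 CPM in CTL and 0.936 and 1.87 CPM in LATS1/2-KO (adjusted p = 0.00402), and *Unc5b*, a netrin receptor, fell by 3.05 (adjusted p = 0.00947). Arterial genes fell for 4 of 7 tested (median -1.45), among them *Gja5* (log2 fold change -2.33, adjusted p = 0.0450), *Hey1* (-2.07, adjusted p = 0.00945) and *Sema3g* (-1.85, adjusted p = 0.00800). Capillary genes rose for 3 of 5 (median 1.15), with *Gpihbp1*, which anchors lipoprotein lipase, up by 3.19 (adjusted p = 0.000730), *Cd36*, a fatty acid transporter, by 1.15 (adjusted p = 0.0111) and *Car4* going from 0 UMIs in CTL to 91.8 and 104.7 CPM. Venous genes rose for 2 of 6 (median 0.33), *Lrg1* by 1.29 (adjusted p = 0.0302) and *Ackr1* by 1.13 (adjusted p = 0.0458), while *Selp*, *Vwf* and *Sele* were at 0.28, -0.14 and -0.13 and did not pass. Both lymphatic genes tested, *Prox1* and *Ccl21a*, fell (-3.32 and -5.54, adjusted p = 0.0245 and 0.00149), from CTL levels that rest on few cells. Of the 9 immediate early and heat-shock genes 5 fell, among them *Fos* (-1.63), and 2 rose, *Hspa1a* and *Hspa1b*. As for the members, none of these calls held without either CTL replicate. In ER+ luminal cells *Col4a1* and *Col4a2* rose too, by 1.79 and 4.83 (adjusted p = 0.00232 and 0.00113), and *Trp53i11* by 1.41 (adjusted p = 0.00353). In fibroblasts the collagens rose by 1.51 and 2.39 (adjusted p = 0.0224 and 0.014) and *Trp53i11* did not pass (adjusted p = 0.122). *Col4a2* did not pass in basal cells (adjusted p = 0.0887). The part of changes shared by lineages in the endothelial rises of these genes was not tested.

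In the luminal epithelium 7 of 8 tested genes of the pathway list rose and none fell in ER- cells, where 32.5% of all genes were called higher and 29.8% lower (median log2 fold change 3.33, against 0.013 for all genes). In ER+ cells 4 of 7 rose and none fell, where 19.2% of all genes were called higher and 17.6% lower (median 3.30, against -0.0062). The list as a whole was not tested. *Nrp2*, a co-receptor for VEGF-C, went from 0.583 and 0.782 CPM to 26.2 and 17.1 CPM in ER- cells and from 0.328 and 0.190 CPM to 17.0 and 23.0 CPM in ER+ cells (log2 fold changes 4.65 and 6.096, adjusted p = 2.24e-05 and 0.000616). *Flt4*, the receptor of VEGF-C, had 0 UMIs in CTL ER+ cells and reached 4.12 and 12.05 CPM in LATS1/2-KO (adjusted p = 0.00629). *Pgf*, the FLT1 ligand placental growth factor, was chosen after its values were seen and rose in luminal cells from 2.36 and 3.85 CPM to 29.3 and 26.9 CPM (2.97, adjusted p = 0.000490), and *Angptl2* rose in ER- cells by 4.65 (adjusted p = 1.36e-05). *Vegfd*, listed under its older symbol *Figf*, fell in luminal cells by 1.40 (adjusted p = 0.0351). In basal cells *Pgf* fell from 46.1 and 96.6 CPM to 19.8 and 26.4 CPM (-1.73, adjusted p = 0.000452) and *Angptl4* rose by 2.88 (adjusted p = 1.13e-07). The part of which cells the basal gate holds in each group was not tested here either. In fibroblasts *Ptprb* fell by 2.69 (adjusted p = 0.0337), the 1 of 9 tested that passed.

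A list of 13 other genes of the hypoxia response, of which *Vegfa* is a known target, was counted in the same way, and its part in the *Vegfa* values was not tested. In ER- cells 3 of 13 rose and 7 fell, where 62.4% of all genes were called (32.5% higher, 29.8% lower). The median log2 fold change of the list was -0.52 there, against 0.013 for all genes, and the list as a whole was not tested. *Egln3*, an oxygen-sensing hydroxylase, fell by 2.87 (adjusted p = 5.98e-06) and *Slc2a1*, a glucose transporter, fell by 1.43 (adjusted p = 2.38e-05). *Adm*, the vascular peptide adrenomedullin, rose from 12.9 and 17.3 CPM to 115.4 and 62.9 CPM (2.23, adjusted p = 0.000515), while it fell in fibroblasts by 2.28 (adjusted p = 0.0173). In endothelial cells 1 of 9 tested passed, *Pfkfb3*, a regulator of glycolysis, which rose by 1.49 (adjusted p = 0.0490). In ER+ cells 3 of 12 rose and 3 fell, where 36.8% of all genes were called.

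Over the 23 sums of a lineage in a library with at least 20 cells, the genes whose log2(CPM + 1) ran most like a member's were given as a description, since sums of 1 library share their depth. *Kdr* ran closest to the endothelial cadherin gene *Cdh5* (Pearson's r = 0.976), *Tek* to *Ptprb* (r = 0.973), *Flt1* to *Gimap6* (r = 0.946) and *Aplnr* to *Gm9889*, *Fam167b* and *Robo4* (r = 0.993, 0.993 and 0.987). *Angpt2* ran closest to *Rbsn* (r = 0.914), *Vegfc* to *Plscr4* (r = 0.830), *Vegfa* to *Pla2g15* (r = 0.847), *Vegfb* to *Sh3d19* (r = 0.871) and *Angpt1* to *Prkaa2* (r = 0.872). The 4 receptors had companions at r of 0.946 or above, and no ligand had one above 0.914.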

How the data were processed

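Single-cell libraries were made with the 10x Genomics 3′ v3 chemistry. The deposited values are raw UMI counts, which the authors obtained by aligning reads to mm10 in Cell Ranger (version 3.1.0 in the submitters' processing notes, 6.1.2 in the matrix headers). Barcodes with over 500 genes and under 20% mitochondrial UMIs were kept. A cell received the lineage with the highest marker score when the second score was at most 0.75 of it and at least 3 markers were detected, and 636 cells lay within 0.1 of that limit. No doublets were removed. UMIs were summed per library and lineage where each library had at least 20 cells. The sums were tested with edgeR 4.0.16 (quasi-likelihood, TMM, filterByExpr, Benjamini-Hochberg over all genes tested, threshold 0.05), two-sided, with the mouse as block for EYFP and for differences between lineages. The SE is the size of the log2 fold change divided by the square root of F. CPM carry no TMM factor. Endothelial shares were compared by an exact permutation test over libraries. DESeq2 1.42.0, RLE factors, clusters (Seurat 5.3.0, sctransform 0.4.2, 20 components, resolution 0.8) and other settings served as alternatives. Deviations of same-numbered mice correlated at -0.146 to 0.0509 over genes, and the labels pair no mice, so replicate numbers were not used as pairs. With 2 mice per group these correlations cannot exclude a shared litter or day. The genes and lists were chosen with earlier results of these data known. Beside the 10 genes, listed genes are named when they passed with groups that did not overlap, at most 3 in each direction per list and lineage, and the 3 most alike genes per member were computed among genes with at least 10 CPM in at least 2 sums. The scripts were tested on simulated data.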

Additional observations from a re-analysis of the deposited data

Results flagged for a closer look

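The effect of LATS1/2 loss differed between ER+ and ER- luminal cells for 4 of the 7 genes tested, by edgeR's interaction term with the mouse as block. The difference, as the log2 fold change in ER+ cells minus that in ER- cells, was 3.73 for *Kdr* (adjusted p = 0.0376), 1.78 for *Flt1* (adjusted p = 0.0224), 3.21 for *Vegfc* (adjusted p = 0.00158) and -0.96 for *Vegfb* (adjusted p = 0.0133). Without the block the differences of *Kdr* and *Flt1* no longer passed (adjusted p = 0.0540 and 0.0644). The same test called 24% of all genes.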

How the results depend on the processing

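Of 569 values of the members under alternatives, 511 kept their direction and side of the threshold, 25 lost and 13 gained it, and 20 turned sign. For listed genes 1855 of 2081 values kept both and 226 lost the call. The cause of these changes was not tested. Counts of genes called moved by over 1.5 times as follows. Basal cells gave 950 with DESeq2 (2586 in the main comparison). Fibroblasts (428) gave 830 without the low-count filter, 857 with the replicate block, 193 after thinning to the smallest library and 3 to 618 with 1 library left out. Endothelial cells (483) gave 255 with DESeq2, 0 without the filter, 305 after thinning, 0 to 434 with 1 library left out, and, in subsets chosen after seeing the data, 208 without lymphatic marker UMIs, 192 with at least 2 arterial genes and 163 with under 2. ER+ cells (4594) gave 2718 to 3525 with 1 library left out, EYFP 1032 without the block and 2902 after thinning (5425), and the luminal and fibroblast difference 837 without the block (1491). The endothelial share difference (3.66 points) was 4.47 with clusters, -0.51 among non-epithelial cells and 3.28 to 4.04 with 1 library left out. With the library total as the only scaling, 5865 luminal genes were higher and 2966 lower (4455 and 4132 in the main comparison), in ER- cells 6534 and 2542 (4476 and 4105) and in basal cells 1672 and 1099 (1296 and 1290).

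Signs turned as follows, as log2 fold changes. In luminal cells *Angpt2* was -0.23 with free RNA subtracted and *Vegfb* 0.080 with the library total. In ER- cells *Angpt1* was 0.10 with the library total, and *Vegfb* -0.016 with clusters and -0.11 to 0.16 with 1 library left out. In fibroblasts *Flt1* was 0.31 with DESeq2, 0.092 without the filter, 0.43 with the replicate block and 0.63 with clusters, and *Vegfa* 0.078 without the filter and 0.27 thinned. With 1 library left out there, *Tek* ran from -0.67 to 0.10, *Flt1* from -0.53 to 7.11, *Angpt2* from -0.92 to 7.44 and *Vegfa* from -0.60 to 0.44, the highest *Flt1* and *Angpt2* values being fitted against 0 UMIs. In endothelial cells *Vegfa* was 0.017 with at least 2 arterial genes and -1.34 to 0.31 with 1 library left out. In EYFP+ cells *Vegfb* was -0.10 thinned.

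The replicate block, which the numbers do not justify, changed 3 of 37 member values: *Kdr* (1.37) and *Vegfa* (-0.45) in ER- cells became called and *Flt1* in fibroblasts turned sign. A crossed pairing in luminal cells, added after seeing the data, called 8549 genes against 8587. A fit without one library assumes that the lone sample varies like the other group. Perivascular cells and macrophages could not be tested with 10 cells per library either. Depth limits *Apln*, *Tek* outside endothelium, and every endothelial value of the 40 and 34 CTL cells.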
